A study of Bos taurus with 15 samples.

Results

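Ribosomal proteins of the cytosolic ribosome were followed in subcutaneous adipose tissue of Holstein cows around their first calving. The genes were chosen by name: those called RPL or RPS with a number, together with RPLP0, RPLP1, RPLP2 and RPSA, and without the kinases of ribosomal protein S6. The rule found 82 of the 13896 genes of the tables, 49 of the large and 33 of the small subunit. Of these, 80 had a mean of at least 10 normalized exonic counts in every comparison and were tested, and RPL10L and RPL3L did not. All 82 names are gene symbols of RefSeq, and positions are not given because the annotation used here belongs to another assembly than bosTau8, to which the reads were aligned.

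The cytosolic ribosome translates the messenger RNAs of the nucleus. Its small subunit reads the messenger and its large subunit joins amino acids, and a stalk of acidic proteins on the large subunit recruits translation factors. Most ribosomal protein messengers carry a pyrimidine-rich start by which the mTORC1 kinase controls their translation, so that messenger level and protein output need not move together.

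The cows were primiparous Prim Holstein animals, and fat was taken from the dewlap under the neck. Of the 5 groups, one was sampled 1 month before calving, before any diet difference. The others received a low energy (LE) or a high energy (HE) diet from 1 month before calving and were sampled at 1 and 16 weeks postpartum (wkpp). The study named them after their negative energy balance (NEB), severe for LE and moderate for HE. Each diet was sequenced in 3 cows, which the study had picked for the most extreme NEB at 1 wkpp, so the groups stand for the ends of the range. By the study's methods each animal was sampled at every time, so the libraries of a diet at 1 and 16 wkpp are repeated samples of the same cows. The recovered libraries are not tied to cows, and all fits treat them as independent. No genotype beyond breed was given. The comparisons were those of the deposited tables: before calving against 1 wkpp for each diet, 1 against 16 wkpp within each diet, and LE against HE at each time. The before-calving libraries serve both diets, so these 2 comparisons share their controls. The tag m2 in the titles marks LE at 1 wkpp and HE at 16 wkpp and m1 the other groups. Its meaning was not given, and it cannot be told apart from the groups.

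The reads of the 15 libraries were recovered from the deposited means, which tell the group of a library but not its cow. Libraries are numbered within a group from most to fewest exonic reads, as names only. Exonic reads on genes were 7537857 to 13000453 before calving, 10838107 to 14372244 in the LE libraries and 1979652 to 7363289 in the HE libraries. The study listed total reads of similar number for all groups, so the HE libraries were not sequenced less. Synthetic spike-in RNA made up 1.31% to 5.82% of exonic and spike-in reads in the before-calving and LE libraries and 25.8% to 42.8% in the HE libraries. Of 6 adipocyte markers 5 were in the tables and none of them was at 0 in any library. Their summed level (normalized exonic counts) was 62719 to 65598 before calving, 65685 to 80920 and 39447 to 46110 in LE at 1 and 16 wkpp, and 14086 to 48404 and 8615 to 32624 in HE. The 7 skeletal muscle markers summed to 87.3 to 358 in the before-calving and LE libraries and to 1180 to 4112 in HE. Markers of 4 other cell types were lower in every HE library than in any other library. Fibroblast markers (2 of 5 listed) had 5924 to 19421 against 31104 to 69082. COL1A1, COL1A2 and COL3A1 of that list were deposited but left out, because their reads could not be recovered to 1 answer. Mast cell markers (2 of 3 in the tables) had 244 to 449 against 1131 to 4317. Those of lymphatic endothelium (4 of 5) had 319 to 723 against 1390 to 3127, and those of T lymphocytes (5 of 6) 75.6 to 126 against 133 to 309. Macrophage markers (5 of 6) overlapped, with 1979 to 7011 in HE and 4997 to 13768 elsewhere. Smooth muscle markers (5 of 5) were higher in HE at 16 wkpp, with 19852 to 65974, than in LE at 16 wkpp, with 4504 to 16031, and blood endothelium markers (5 of 5) reached 63525 in HE at 1 wkpp and at most 36739 outside HE. Every comparison of an HE group with a group outside HE therefore sets libraries of unlike exonic reads, spike-in share and marker level against each other. The part of these in the results was not tested. In whole tissue, fewer cells of a type and less RNA per cell cannot be told apart. The p-values measure the spread between these libraries.

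Most ribosomal protein genes were among the abundant messengers of the fat. The mean level over the 15 libraries was at least 1000 normalized exonic counts in 58 members and under 100 in 5, and the 10 highest held 34.4% of all member reads. These counts are not per length, so they rank reads and not molecules. Among the highest were RPLP0, the base of the stalk, with 14462, RPL4 with 10614, RPSA with 10249 and RPL23 with 9115. Far below lay RPL36A with 93.4, RPL23A with 49.9, RPS15A with 22.8 and RPL3L with 5.99 normalized counts. RPL10L, in other mammals a testis copy of RPL10, had 2 reads in 1 library and 0 in the other 14, where a count of 0 allows up to 3 reads. Ribosomal protein genes have many processed copies in mammalian genomes, and reads that match more than 1 place may have been lost or moved between copies, so a low count of a single member is uncertain. By the study's read statistics every HE library had more multi-mapped reads and a lower share of uniquely aligned reads than any other library. This difference enters every comparison of HE with a group outside HE, and its part in the values was not tested.

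The family as a whole took 2.44% to 5.85% of the exonic reads of a library. Before calving the share was 3.15%, 4.09% and 3.25% in libraries 1 to 3. In HE cows it was 2.44%, 3.34% and 3.62% at 1 wkpp and 3.04%, 5.85% and 4.92% at 16 wkpp. In LE cows it was 4.07%, 4.43% and 3.45% at 1 wkpp and 3.96%, 4.56% and 4.06% at 16 wkpp. The group means were 3.50% ± 0.51 before calving, 3.13% ± 0.62 and 4.60% ± 1.43 in HE and 3.99% ± 0.50 and 4.19% ± 0.32 in LE at 1 and 16 wkpp (SD, n = 3 each). HE at 1 wkpp lay wholly below LE at 16 wkpp, all other pairs of groups overlapped, and the HE libraries at 16 wkpp spread most. In both HE groups the library with the most exonic reads had the lowest share. Large subunit genes took 1.17 to 1.29 times the reads of small subunit genes in every library, so the subunits kept nearly the same proportion while the sum moved.

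**Figure D1:**
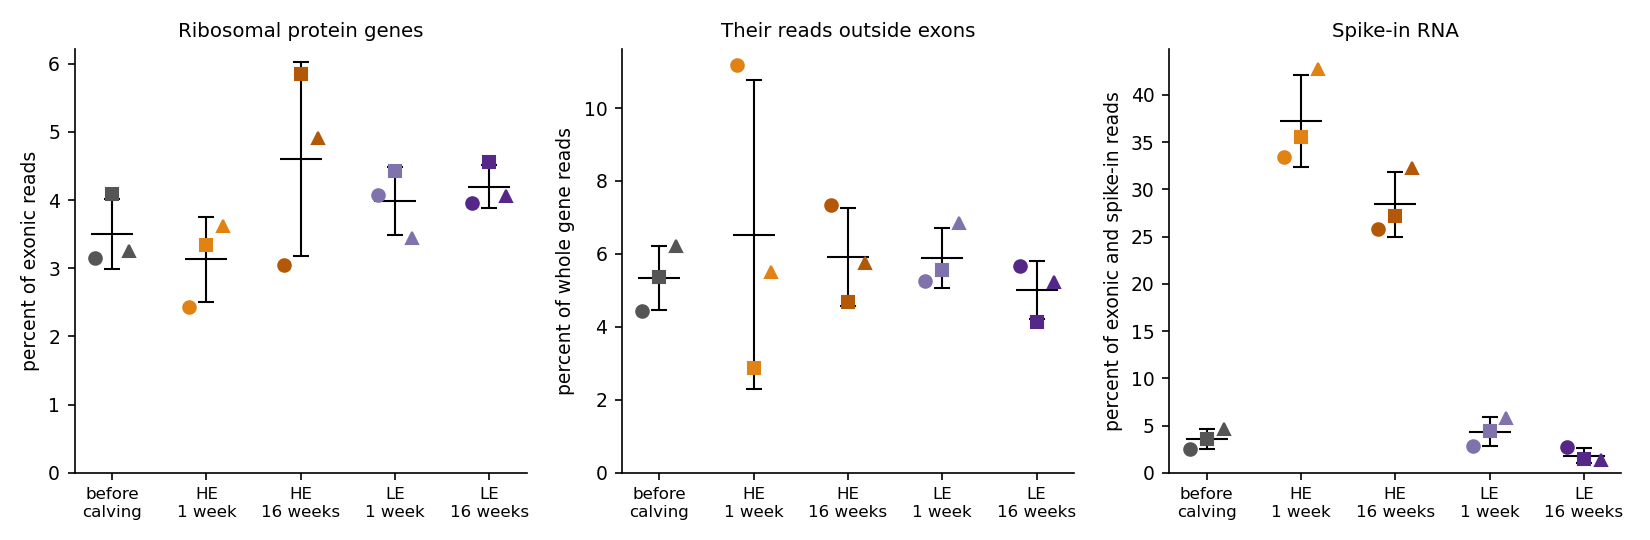
Values of the 15 libraries by group (circle, square and triangle, libraries 1, 2 and 3; bars, mean and SD, n = 3): the ribosomal protein genes in percent of exonic reads, their reads outside exons in percent of their whole gene reads, and spike-in RNA in percent of exonic and spike-in reads. The share of the family runs from 3.04% to 5.85% in HE at 16 wkpp and from 2.44% to 3.62% at 1 wkpp, and the spike-in share is highest in the 6 HE libraries.

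Single genes mostly followed this sum. Pearson's r was taken over the 15 libraries between a member's log2(normalized count + 1) and log2 of the family's summed normalized count. It had a median of 0.83 over the 80 tested members, reached 0.98 for RPSA and was at least 0.8 in 42. The libraries share depth and normalization, and each member is part of the sum, so r is a description. It was under 0.3 in 8 members: RPS28 (-0.10), RPL7L1 (0.06), RPS25 (0.16), RPS4Y1 (0.18), RPS15A (0.18), RPS27L (0.23), RPL7 (0.26) and RPS13 (0.29). By group mean, 53 of the 80 members were highest in HE at 16 wkpp and 25 in LE at 16 wkpp, and 59 were lowest in HE at 1 wkpp and 17 before calving. Of single libraries, HE library 2 at 16 wkpp was the highest of all 15 for 52 members and HE library 1 at 1 wkpp the lowest for 48. The highest library exceeded the lowest by a median of 3.10 times, from 1.42 times in RPL7L1 to 20.5 times in RPS13.

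**Figure D2:**
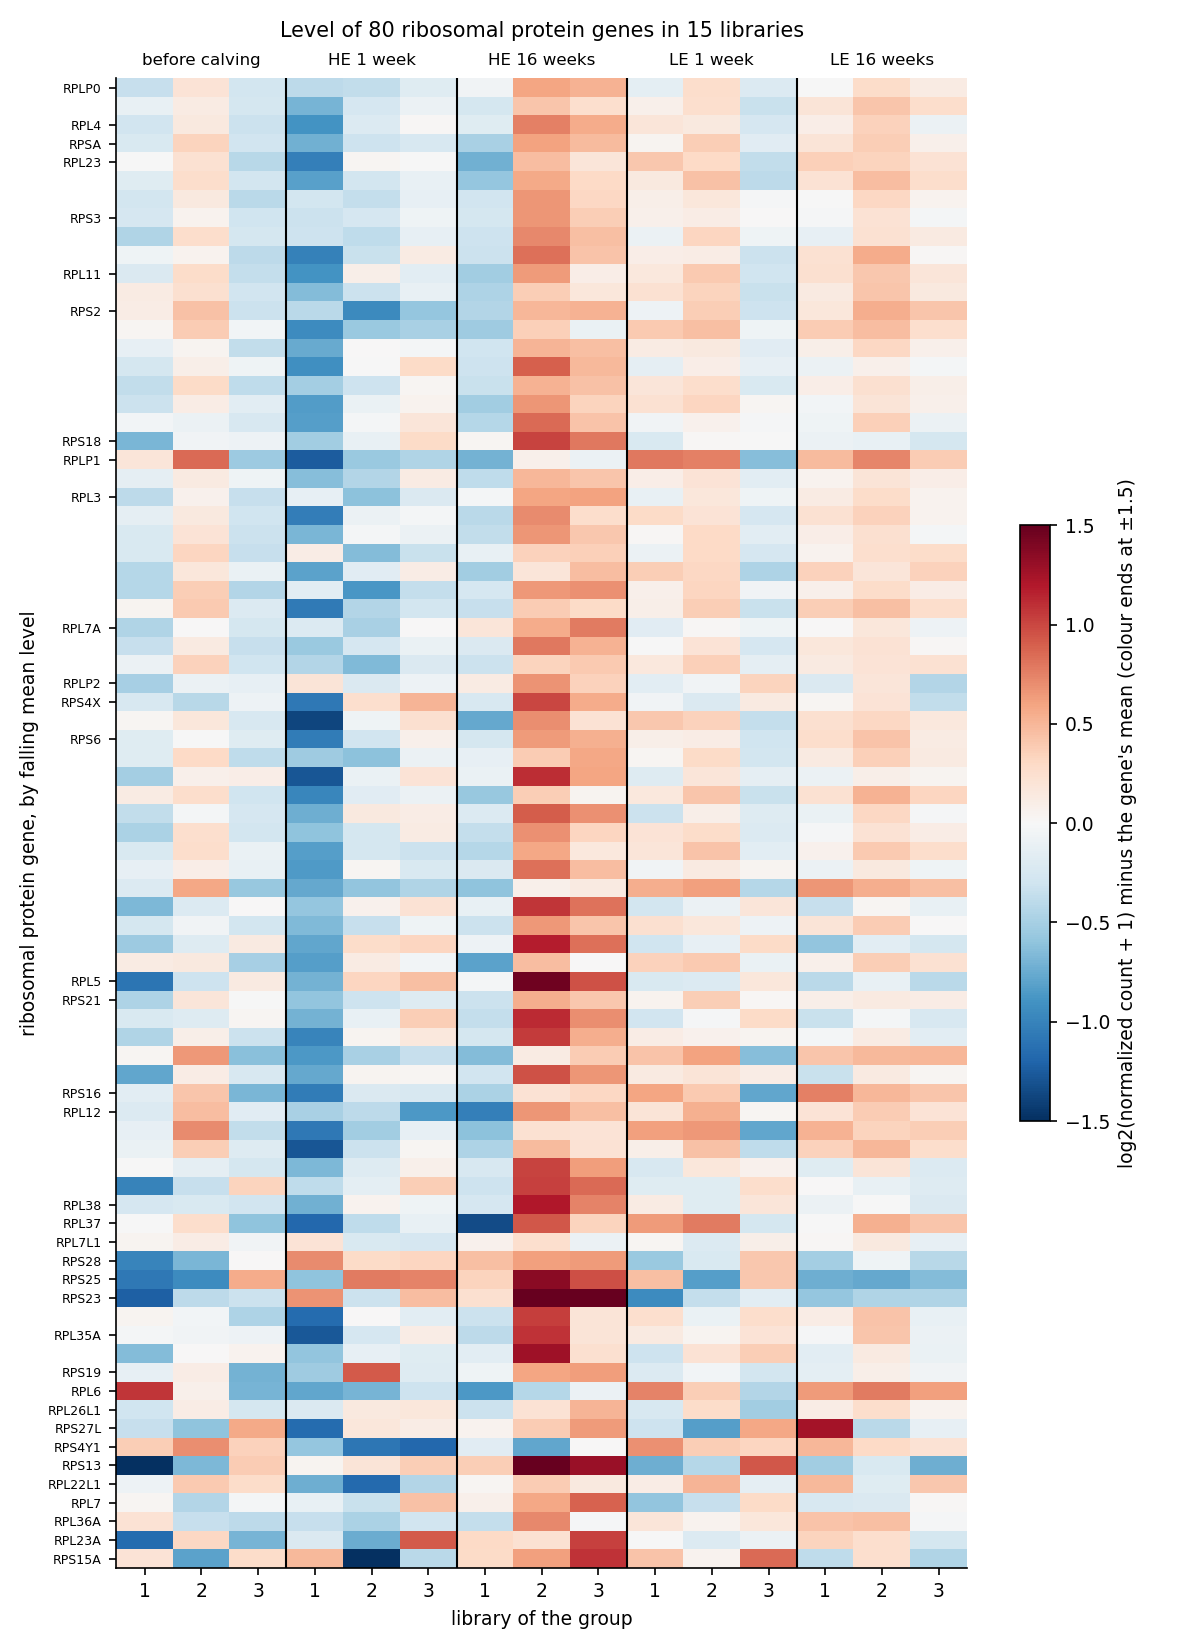
Heat map of the 80 ribosomal protein genes (rows, by falling mean level, with some genes of the text named) over the 15 libraries (columns), as log2(normalized exonic count + 1) minus the gene's mean over the libraries (red, above; blue, below). HE library 2 at 16 wkpp is the highest for 52 of 80 genes and HE library 1 at 1 wkpp the lowest for 48.

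No ribosomal protein gene passed the test in any of the 6 comparisons. A gene was called when its adjusted p from limma voom was below 0.01 in both the exonic and the whole gene counts with the same sign, and all values below are log2 fold changes of exonic counts, first group over second, ± SE. Counts of members higher or lower go by the sign of this fitted value. The share of all tested genes called higher and lower in the first group was 0.999% and 0.73% for before calving against HE at 1 wkpp, 0.0378% and 0% for before calving against LE at 1 wkpp, and 1.09% and 2.6% for LE against HE at 16 wkpp. It was 0% both ways in the other 3 comparisons. A second tool, limma-trend, called 1 member, RPS25, lower in LE against HE at 16 wkpp, where it called 2.92% of all genes lower, and 0 elsewhere. What follows therefore gives directions and sizes with their errors, not called differences.

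In HE cows all 80 members had a lower mean level at 1 wkpp than at 16 wkpp. The median log2 fold change (1 over 16 wkpp) was -0.59, with a range of -1.07 to -0.09, against -0.01 over all 9891 genes tested, of which 50.4% were lower. Large subunit genes had a median of -0.58 and small subunit genes of -0.60. With limma voom 0 members were called (percent of all genes called 0%), and 17 of 80 (21.2%), all lower, had an unadjusted exonic p below 0.05, against 13.5% of all genes. Groups without overlap were found in 4 members, RPL22L1, RPL3, RPL7A and RPLP0, all lower at 1 wkpp, while 10.2% of all genes lay so. The shift depended on which libraries were in: the median was -0.39 without HE library 2 at 16 wkpp, -0.43 without HE library 1 at 1 wkpp and -0.88 without HE library 1 at 16 wkpp. Most members stayed lower in each case. Without HE library 1 at 1 wkpp, 79 members were tested and 3 of them were higher at 1 wkpp.

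The 4 members with separate groups had larger differences than the members' median of -0.59. They were picked for their lack of overlap and do not give the size of the family's shift. RPLP0 had 10800, 10911 and 12473 normalized counts in HE at 1 wkpp and 13626, 21277 and 20320 at 16 wkpp, a log2 fold change of -0.69 ± 0.24 (adjusted p = 0.30, limma voom). RPL22L1, a paralog of the large subunit protein RPL22, had 62.8, 46.1 and 77.5 at 1 wkpp and 107, 137 and 117 at 16 wkpp (-0.94 ± 0.31, adjusted p = 0.28). Both genes were lower in every library at 1 wkpp than in any at 16 wkpp. RPL7A, a large subunit protein, gave -0.75 ± 0.24 (adjusted p = 0.27) and RPL3, which lies near the peptidyl transferase centre, -0.73 ± 0.25 (adjusted p = 0.29). The 3 largest differences were in small subunit genes whose groups overlapped, RPS23 with -1.07 ± 0.48, RPS13 with -0.996 ± 0.418 and RPS15A with -0.98 ± 0.72 (adjusted p = 0.37, 0.35 and 0.56). The value of RPS15A rested on 27, 1 and 4 exonic reads in HE libraries 1 to 3 at 1 wkpp.

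In LE cows the same step was small. The median log2 fold change (1 over 16 wkpp) was -0.09 against -0.01 over all 10620 genes, with 58 of 80 members lower. No member was called by limma voom (0% of all genes) and 0 had an unadjusted p below 0.05, against 7.18% of all genes. RPS6, the small subunit protein that S6 kinase phosphorylates, was the one member without overlap. It was lower in every library at 1 wkpp, as were 4.11% of all genes, while 8.02% of all genes were higher. RPS6 had 3420, 3468 and 2619 normalized counts at 1 wkpp and 3871, 4350 and 3523 at 16 wkpp, a log2 fold change of -0.33 ± 0.18 (adjusted p = 0.69). The highest library at 1 wkpp had 3468 and the lowest at 16 wkpp 3523, so the gap was narrow. The largest differences were 0.71 ± 0.34 in RPS25 and 0.63 ± 0.40 in RPS15A on the side of 1 wkpp, and -0.51 ± 0.34 in RPS16 and -0.50 ± 0.49 in RPS27L on the side of 16 wkpp. RPS27L rested on LE library 1 at 16 wkpp, which had 413 counts beside 131 and 159. The median of the members was -0.01 without LE library 3 and -0.17 without LE library 2 at 1 wkpp, -0.05 and -0.15 without LE libraries 2 and 3 at 16 wkpp, and -0.04 after scaling to total counts.

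The difference between the diets in this step was fitted directly over the 12 libraries after calving, a fit added after the data were seen. The HE change minus the LE change had a median of -0.50 over the members against -0.02 over all 10246 genes tested, and 78 of 80 members were negative. No gene was called in this fit (0%, limma voom), and 5 members (6.25%) had an unadjusted p below 0.05, close to the 4.93% of all genes, among them RPS25 (-1.40 ± 0.58, adjusted p = 0.99). The median was -0.29 without HE library 2 at 16 wkpp, -0.33 without HE library 1 at 1 wkpp and -0.74 without HE library 1 at 16 wkpp.

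**Figure D3:**
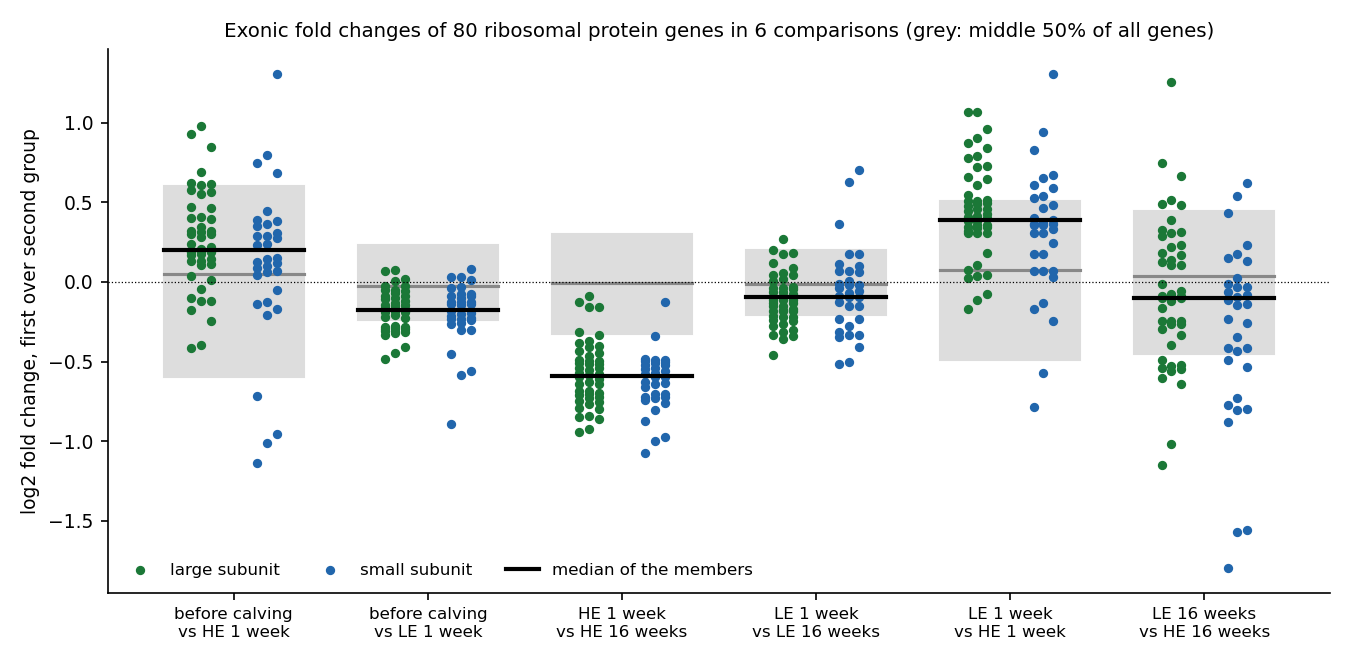
Exonic log2 fold changes (first group over second) of the 80 tested ribosomal protein genes in the 6 comparisons (points, genes by subunit; black line, their median; grey band and line, middle 50% and median of all tested genes). The members' median is -0.59 for HE at 1 over 16 wkpp, 0.39 for LE over HE at 1 wkpp and between -0.18 and 0.20 in the other comparisons.

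Before calving, the family's median lay above that of HE and below that of LE at 1 wkpp. Against HE at 1 wkpp the median log2 fold change was 0.20 (range -1.13 to 1.31, 63 of 80 higher before calving) beside 0.05 over all 10521 genes. Against LE at 1 wkpp it was -0.18 (range -0.89 to 0.08, 72 of 80 lower before calving) beside -0.03 over all 10723 genes. Neither comparison had a called member (limma voom). Of the members, 9 (11.2%) had an unadjusted p below 0.05 against HE, 7 higher and 2 lower before calving, where 42.3% of all genes did, and 0 did against LE, where 14.5% of all genes did. Without HE library 1 the first median was 0.02, without before-calving library 2 it was 0.07, without HE library 3 it was 0.32, and in whole gene counts it was 0.12. The second was -0.08 without LE library 2 or without before-calving library 3, and -0.11 without before-calving library 1 and -0.30 without before-calving library 2.

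A few members stood apart from this middle. RPS4Y1, a paralog of RPS4X in the small subunit, had 218, 273 and 214 normalized counts before calving and 112, 78.7 and 73.8 in HE at 1 wkpp, with 1.31 ± 0.31 and an adjusted p of 0.0099 in exonic counts but 0.17 in whole gene counts. It therefore passed in one analysis, as 7.28% of all genes did on the higher side, and was not called. RPS28, at the small subunit's messenger exit, ran the other way, with 249, 307 and 496 before calving and 809, 602 and 616 in HE at 1 wkpp (-1.01 ± 0.28, adjusted p = 0.021). Separate groups were seen in 7 members higher before calving than in HE (among them RPL12, RPL22L1, RPL27, RPS10, RPS2 and RPS4Y1) and in 2 that were lower (RPS23 and RPS28), while 23.0% and 23.8% of all genes lay so. Against LE 2 members were lower in every library before calving, RPL35A and RPL38, while 9.22% of all genes were. RPL38 had 642, 648 and 623 normalized counts before calving and 828, 671 and 864 in LE at 1 wkpp (-0.29 ± 0.16, adjusted p = 0.45). RPS13 had the most negative values before calving against both, -1.13 ± 0.58 against HE and -0.89 ± 0.65 against LE (adjusted p = 0.16 and 0.60), with 27.7, 87.1 and 183 counts before calving. These 3 libraries differed more among themselves than the group means did. On the other side, RPS2, RPL7 and RPL7L1 had the largest positive values against LE, with 0.081, 0.077 and 0.069.

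At 1 wkpp, the fitted log2 fold change (LE over HE) was above 0 in 72 of 80 members. The median was 0.39, with 0.43 in large and 0.36 in small subunit genes, against 0.07 over all 10476 genes. With limma voom 0 members were called (0% of all genes), and 19 members (23.8%) had an unadjusted p below 0.05, 18 higher and 1 lower in LE, against 32.4% of all genes. In 17 members every LE library lay above every HE library and in 0 below, where 19.1% and 20.6% of all genes did. The share of members above thus was close to that of all genes, and the share below was not reached by any member. Without HE library 1 the median was 0.22 and without HE library 3 it was 0.53.

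The genes with the largest differences at 1 wkpp had roles in both subunits. RPS4Y1 had 271, 219 and 211 normalized counts in LE and 112, 78.7 and 73.8 in HE (1.303 ± 0.305, adjusted p = 0.024). Its groups were separate, and its adjusted p in whole gene counts was 0.17. RPLP1, an acidic protein of the stalk, had 8507, 8286 and 3160 in LE and 2063, 3359 and 3603 in HE (1.07 ± 0.39, adjusted p = 0.092). Here LE library 3 fell among the HE values. RPL37, a small protein of the large subunit, had 902, 995 and 479 in LE and 254, 442 and 535 in HE (1.06 ± 0.36, adjusted p = 0.077). Its LE library 3 also fell among the HE values. RPS23 (-0.79 ± 0.32), RPS28 (-0.57 ± 0.29) and RPS13 (-0.24 ± 0.47) had the lowest values (adjusted p = 0.13, 0.20 and 0.75).

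At 16 wkpp single members pointed both ways between the diets. The median log2 fold change (LE over HE) was -0.10 against 0.03 over all 10264 genes, with 27 of 80 members higher in LE and a range of -1.80 to 1.25. It was -0.36 without HE library 1, 0.05 without HE library 2, -0.19 without LE library 2 and -0.28 in whole gene counts. The unadjusted p was below 0.05 in 15 members (18.8%), 5 higher and 10 lower in LE, against 38.5% of all genes. Groups were separate in 7 members above (among them RPL28, RPL36, RPL6, RPLP1, RPS16 and RPS4Y1) and 10 below (RPL34, RPL5, RPL7, RPL7A, RPS13, RPS15A, RPS18, RPS23, RPS25 and RPS28), while 22.0% of all genes lay apart in each direction.

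The 3 lowest members in LE against HE at 16 wkpp, RPS23, RPS13 and RPS25, were small subunit genes, and the large subunit genes RPL5 and RPL34 followed. RPS25, which contacts viral and cellular internal entry sites of messengers, had 250, 245 and 264 normalized counts in LE and 524, 1063 and 813 in HE, a log2 fold change of -1.56 ± 0.25 with an adjusted p of 0.0031 in exonic and 0.012 in whole gene counts. The groups were far apart, and the HE libraries spread more than the LE libraries. RPS23, a protein of the decoding centre, had 239, 262 and 262 in LE and 425, 1673 and 1088 in HE (-1.80 ± 0.42, adjusted p = 0.016 and 0.040 in the 2 counts). RPS28 had 347, 472 and 370 in LE and 674, 756 and 770 in HE (-0.88 ± 0.17, adjusted p = 0.0074 and 0.018). RPS13 had 97.0, 119 and 83.6 in LE and 181, 568 and 345 in HE (-1.57 ± 0.38, adjusted p = 0.019 and 0.055). In RPS25, RPS23 and RPS13 the LE values lay close together and the HE values spread, and in all 4 genes the groups were separate. Without HE library 1, which had the most exonic reads of the HE libraries, 4 of 80 members were called lower in LE. These were RPL5, RPS18, RPS23 and RPS25, beside 0.84% of all genes.

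On the higher side stood RPL6, a large subunit protein, with 330, 363 and 325 normalized counts in LE and 116, 157 and 199 in HE (1.25 ± 0.22, adjusted p = 0.0050 and 0.036). RPLP1 had 6819, 8198 and 6435 in LE and 3018, 5175 and 4615 in HE (0.75 ± 0.24, adjusted p = 0.052). In exonic counts alone RPL6 would pass as higher and RPS25 and RPS28 as lower in LE, where 3.45% and 6.97% of all genes would. With an adjusted p below 0.05 in both counts RPL6 would pass as higher and RPS23, RPS25 and RPS28 as lower, where 4.48% and 8.78% of all genes would. None of these counts of members lay above the share of all genes.

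**Figure D4:**
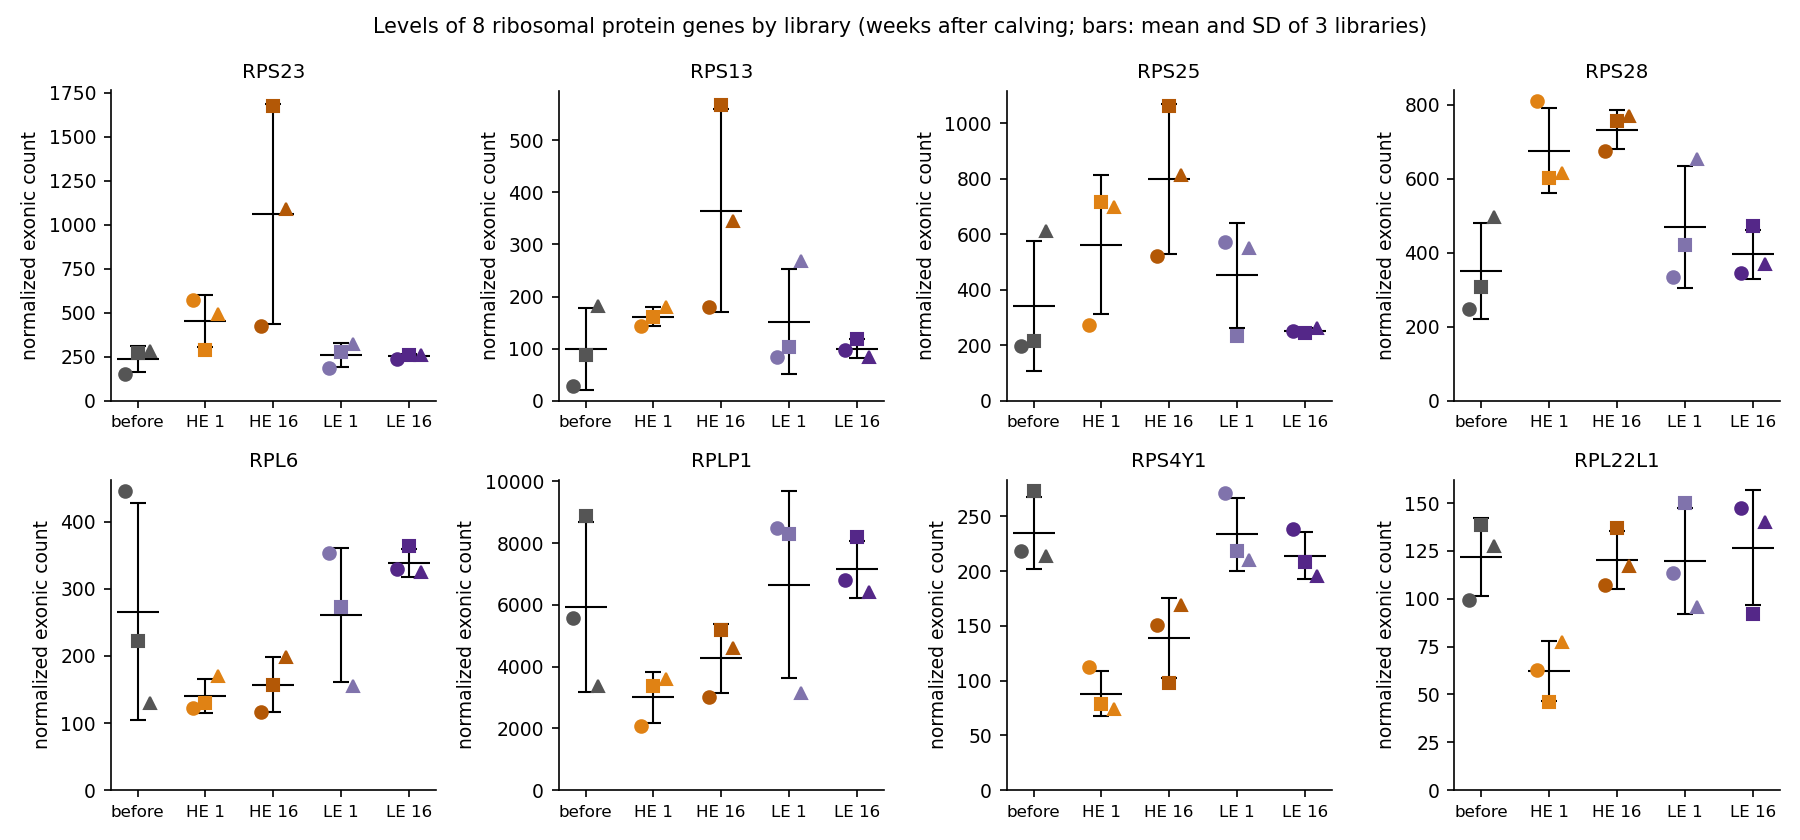
Levels of 8 ribosomal protein genes in each library by group (normalized exonic counts on axes from 0; circle, square and triangle, libraries 1, 2 and 3; bars, mean and SD, n = 3). RPS25 lies at 245 to 264 in LE and at 524 to 1063 in HE at 16 wkpp, and RPL6 at 325 to 363 and 116 to 199.

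The 3 proteins of the stalk did not share one order of groups. The mean of RPLP0 was highest in HE at 16 wkpp, whereas that of RPLP1 was higher in LE and before calving than in HE, with 5564, 8869 and 3383 before calving. RPLP2, the partner of RPLP1, had 2520, 3354 and 3267 before calving, 4077, 3050 and 3359 in HE at 1 wkpp, 3856, 5658 and 4503 at 16 wkpp, and 3194, 3434 and 4478 followed by 3056, 4040 and 2626 in LE. For LE over HE at 16 wkpp, RPLP1 gave 0.75 ± 0.24 and RPLP2 -0.54 ± 0.22 (adjusted p = 0.052 and 0.11), and no test of their difference was made.

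RPSA, also known as the laminin receptor, had 6027, 7980 and 8390 normalized counts in HE at 1 wkpp and 10199, 12800 and 8839 in LE, so that its groups were separate (0.53 ± 0.23, adjusted p = 0.14). RPL5 and RPL11, which with 5S RNA form the particle that restrains MDM2, had unlike values, and no test of their difference was made. RPL5 had 1321, 1610 and 1323 in LE and 1713, 4804 and 3388 in HE at 16 wkpp (-1.15 ± 0.33, adjusted p = 0.034), with separate groups. RPL11 had 8360, 9421 and 8030 in LE and 4958, 11016 and 7587 in HE at 16 wkpp, where the groups overlapped (0.17 ± 0.29, adjusted p = 0.71). RPS19, mutated in Diamond-Blackfan anaemia, stayed between 178 and 551 over all libraries and gave no value beyond 0.35 in size.

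Paralogs of core members were mostly minor. RPL3L, the skeletal muscle form of RPL3, had 56 reads over all libraries, with 0.543 to 7.51 normalized counts in the before-calving and LE libraries and 2.09 to 24.5 in HE, and was at most 0.55% of the reads of the pair. The skeletal muscle markers were higher in the same HE libraries, as given above, and their part in RPL3L was not tested. RPS4Y1 made up 5.06% to 9.70% of the reads of RPS4X and RPS4Y1 in the before-calving and LE libraries and 1.42% to 6.50% in HE. RPS27L, a p53 target, took 5.15% to 19.8% of its pair with RPS27, and RPL26L1 took 6.31% to 13.4% of its pair with RPL26. RPL7L1 was the exception, with 454 to 645 normalized counts in every library and 72.7% to 89.0% of the reads of the pair, beside 67.9 to 190 of RPL7 itself. The low count of RPL7 is uncertain, since reads that match several copies may have been lost, so the pair's shares need not be those of the messengers. RPL7L1 was the steadiest member of all and gave no log2 fold change beyond 0.16 in size. The partners RPL22 and RPL39L were not analysed here.

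Few reads of the family lay outside exons. In the tested members a median of 3.47% of whole gene reads (quartiles 1.51% and 11.5%) lay outside exons, against 42.8% (19.4% and 66.0%) over 10452 genes with a mean of at least 10 and 31.6% over 75 mitochondrial ribosomal proteins. The ratio of whole gene to exonic reads was under 1.1 in 58 of the 80 members and above 1.5 in 6. Per library, 2.88% to 11.2% of the members' reads lay outside exons, against 40.2% to 60.8% of all reads, and both ends of the members' range were HE libraries at 1 wkpp. At the low end RPL12 had no read outside exons, and RPLP0 and RPS21 had at most 1.01% in any library. The highest ratios belonged to weakly counted members, RPS15A with 5.19, RPL36A with 2.98, RPL23A with 2.72, RPS19 with 1.89 and RPL3L with 1.88.

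RPS3, a small subunit protein at the messenger entry whose introns hold small nucleolar RNAs, was the abundant exception. It held 38.4% of all member reads outside exons, and 44.6% of its own reads lay there, from 13.4% in HE library 2 to 61.5% in HE library 1 at 1 wkpp. Its exonic counts ran from 6362 to 12661 and followed the family (r = 0.93). Whole gene values of RPS3 are thus values of exons and introns together, and RPS3 was singled out after its values were seen.

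**Figure D5:**
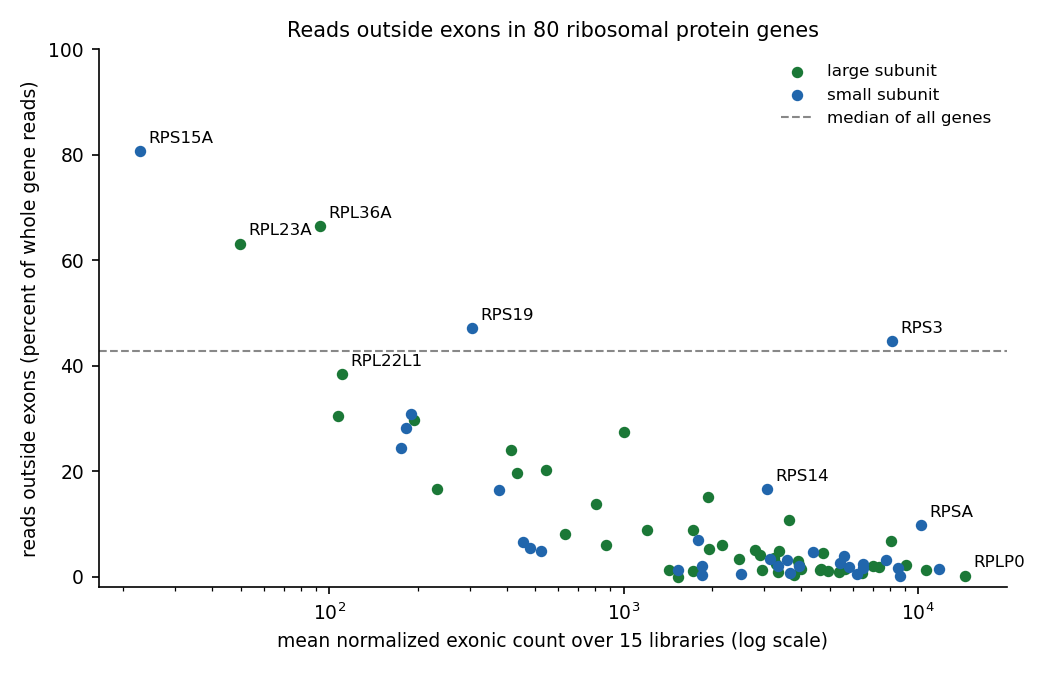
Reads outside exons, in percent of whole gene reads, against the mean normalized exonic count (log axis) of the 80 tested ribosomal protein genes (points, by subunit; dashed line, median of all genes at 42.8%). RPS15A, RPL36A, RPL23A, RPS19 and RPS3 lie above the line and all other members below it.

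Genes around the ribosome gave few calls. Of 5 ribosomal proteins named outside the rule, 4 were in the tables (among them FAU, RPL36AL and GNB2L1, the older symbol of RACK1) and 0 were called by limma voom. In HE all 4 were lower at 1 than at 16 wkpp with a median log2 fold change of -0.56, and 1 had an unadjusted p below 0.05. Calls of limma-trend were counted for the members only. A list of 17 other genes whose messengers carry the pyrimidine-rich start held elongation and initiation factors and also TPT1, NAP1L1, NPM1, HNRNPA1, NACA and BTF3, which are not translation factors. Of the 16 measured, 16 were lower in HE at 1 wkpp, with a median of -0.40, 0 calls and 2 unadjusted p below 0.05 (13.5% of all genes). EEF1A1, the elongation factor that brings tRNA, had 11420, 12447 and 15770 normalized counts at 1 wkpp and 13956, 27407 and 22982 at 16 wkpp (-0.68 ± 0.29, adjusted p = 0.35). The 75 mitochondrial ribosomal proteins, which serve the organelle's own ribosome, had a median of -0.24 in this comparison with 17 of 74 tested higher at 1 wkpp, and medians of 0.44 before calving over HE at 1 wkpp and 0.40 for LE over HE at 1 wkpp, with 0 calls in all 6 comparisons and unadjusted p below 0.05 in 9, 24 and 21 of them in these 3, where 13.5%, 42.3% and 32.4% of all genes had one.

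Among factors that make ribosomes, 1 of 26 measured genes of 28 listed was called, at 16 wkpp, where 2.6% of all genes were called lower in LE. RRP12, which helps export pre-ribosomes, had 671, 597 and 506 normalized counts in LE and 1316, 1187 and 1528 in HE at 16 wkpp (-1.18 ± 0.17, adjusted p = 0.0021 in exonic and 0.0081 in whole gene counts), and was lower in LE. The list holds RNA polymerase I, processing and export factors and the transcription factor MYC. The list's median before calving was -0.36 against HE at 1 wkpp, with 20 of 26 lower, and -0.27 against LE, with 24 of 26 lower, and 0 were called in either, with 13 and 5 unadjusted p below 0.05, where 42.3% and 14.5% of all genes had one. Among the 15 measured genes of 19 listed for mTORC1 and S6 kinase, 0 were called in any comparison, with 0 to 8 unadjusted p below 0.05 beside 7.18% to 42.3% of all genes, and their medians ran from -0.18 to 0.25.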

How the data were processed

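RNA of 15 dewlap fat samples was made by the authors into stranded, rRNA-depleted total RNA libraries and sequenced as single reads. Per the labels and the study's methods, reads were handled with bcl2fastq 2.15.0 and Cutadapt 1.3, aligned with TopHat2 to bosTau8 and counted with HTSeq over exons and over entire genes. The deposited signal is the mean over 6 libraries of counts divided by the size factors that the authors made with DESeq2, in 6 tables, for exons and for whole genes. The other deposited columns hold the authors' log2 fold changes, their standard errors, Wald statistics, p-values and adjusted p-values, and were not used. No column belonged to other samples (0).

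The means carry enough digits that the reads of each library were solved from them. A mean of few reads gives the size factors, libraries were matched over tables by genes with the same split, and all other genes were solved by lattice reduction. Of 13988 entries, 13981 (exons) and 13979 (whole genes) were solved, 13970 and 13965 to 1 answer. All 82 members had 1 answer. Spike-in entries (92) were left out of tests. The analysis had been planned for count tables, and the recovered reads took their place. Spike-in shares use the 83 spike-ins with 1 answer. The 9 genes without a single exonic answer (COL1A1, COL1A2, COL3A1, FN1, GSN, RMRP, SCD, SPARC and RN7SL1) were left out. In the authors' means they hold 6.01% to 11.0% of all counts.

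Genes with a mean normalized count of at least 10 over the 6 libraries were fitted with limma 3.58.1 (voom, R 4.3.3) per comparison, with the recovered size factors, and p-values were adjusted by Benjamini-Hochberg over all of them. A gene was called below 0.01 in both counts with 1 sign. The study's rule was the same threshold in both analyses, and the condition on sign was added here. limma-trend used log2(normalized count + 1). Repeated samples of a cow entered as independent. Levels are exonic reads over size factors. Recovery ran in Python 3.11.15 (numpy 2.4.6, pandas 2.3.3, sympy 1.14.0), and both steps were tested on simulated data. Intervals of error cover the spread between 3 libraries. Genes were named by rule: the 5 highest and 5 lowest levels, the 3 largest differences each way per comparison, the 5 highest and lowest ratios of whole gene to exonic reads, the stalk, RPSA, RPS6, RPL5, RPL11, RPS19 and paralog pairs. Some genes under this rule are not reported here. Members without overlap, RPL7A and RPS3 were named after their values were seen. Members and lists were chosen with earlier results of these data known.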

Additional observations from a re-analysis of the deposited data

Results flagged for a closer look

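Spike-in RNA, which no comparison used, was far above its level in the before-calving libraries in both HE groups. It made up a mean of 37.2% of exonic and spike-in reads in HE at 1 wkpp and 28.4% at 16 wkpp, where the highest before-calving library had 4.66%. The amount added was not given in the sources used here, and the spike-ins set no scale in any value of the report.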

How the results depend on the processing

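No paired analysis was possible because the recovered libraries carry neither a replicate number nor a cow, although the cows were sampled repeatedly. Called members stayed at 0 in 91 of 96 alternative counts. Exonic counts alone gave 1 for before calving against HE at 1 wkpp and 3 for LE against HE at 16 wkpp. In the latter, an adjusted p below 0.05 gave 4, limma-trend 1, and leaving out a library 0 to 4. Over whole gene counts the members' share was 1.75% before calving, 1.74% and 2.66% in HE and 2.02% and 2.07% in LE at 1 and 16 wkpp, by construction a larger denominator. All 78 alternative medians moved by less than the spread between replicates, although LE over HE at 16 wkpp changed sign without HE library 2. Of the named members' values, 443 kept direction and side of the threshold, 9 passed it and 9 changed sign. The latter were RPS2 (-0.094 to 0.29 over left-out libraries), RPL7 (-0.11 to 0.31, and -0.080 in whole gene counts) and RPL7L1 (-0.020 to 0.13) before calving against LE at 1 wkpp, RPS27L (-0.87 to 0.034) and RPS13 (-0.11 to 0.69) in LE at 1 over 16 wkpp, and RPS13 (-0.73 to 0.10) in LE over HE at 1 wkpp. The causes were not tested. The number of exonic reads limits single HE libraries most, with 1979652 in the lowest. The members' share of the authors' means with all genes was 2.95% to 4.04% per table.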
